A study of Drosophila melanogaster with 9 samples.

Results

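Tendon cells are ectodermal cells at segment borders to which the ends of body wall muscles attach. In Drosophila their fate is set by sr (stripe), and muscles that arrive maintain it through the EGF receptor ligand Vein, after which the cells build a matrix outside and dense microtubule bundles inside to carry the pull of the muscle. Described here are 6 genes known for this cell type, chosen by name: sr and tx, which encode transcription factors, Tsp and slow, which encode secreted matrix proteins, and shot and betaTub56D, which belong to the microtubule scaffold. Each had 1 probe set annotated with its symbol alone, so that 6 of 10563 genes with such a probe set, and 6 of 16377 probe sets, entered. A further probe set annotated with 2 symbols, tx among them, was left out.

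Fluorescent cells were collected from embryos of stage 13 that had been laid over 2 h and kept for 8 h more at 25 °C, and no group was sorted for tendon cells. The ap_GFP cells carried the apterous-GFP transgene, in which a muscle enhancer drives GFP in one subset of body wall muscles. The slou_RFP cells carried slouch-RFP, driven by a muscle enhancer of slouch (S59) in another subset, and the twi_actin_GFP cells carried twist_actin-GFP, an actin-GFP fusion under the promoter of the mesodermal gene twist. The submitters compared each muscle reporter with twi_actin_GFP. Every group held 3 arrays, each from a sort of its own, and the labels name the tissue as somatic mesoderm. When sorted again, ap_GFP cells were 74% pure, slou_RFP cells 87% and twi_actin_GFP cells 95%.

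All levels are log2 signals after RMA (background correction, normalization between arrays and probe summary), and 1 unit is a doubling. Array medians lay between 4.47 and 4.61 and array lower quartiles between 3.36 and 3.64. No member lay under the lower quartile on any array. The arrays ap_GFP replicate 3 and slou_RFP replicate 2 stood apart from the rest of their groups: across probe sets each was closest to the other (r = 0.986), and slou_RFP replicate 2 reached 0.970 with the other arrays of its own group, where ap_GFP replicate 3 reached 0.984 and 0.986. Each result is therefore given for all 9 arrays and for the 7 arrays without this pair. The pair was picked from these same values, and p-values on 7 arrays do not allow for that choice. They rest on 2 arrays in each muscle reporter group. The summed signals of hemocyte, tracheal, glial and epidermal markers were higher on each twi_actin_GFP array than on any muscle reporter array. Not every marker followed. Hml, a hemocyte gene, rose on both muscle reporters, and cora, an epidermal septate junction gene, on slou_RFP. Both were named after their values were seen. The group means of Hml lay near the array medians (4.70 on ap_GFP, 4.71 on slou_RFP and 4.16 on twi_actin_GFP), so that Hml is not shown to be above background. The twi_actin_GFP reference is therefore named by its label only. In such bulk samples fewer cells of a type and less RNA per cell cannot be told apart.

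The 6 genes did not move together. Against twi_actin_GFP, tx rose and shot fell on both muscle reporters, sr and slow lay below twi_actin_GFP on 4 and 5 of the 6 muscle reporter arrays but did not pass the test, and Tsp and betaTub56D passed in neither comparison. On ap_GFP 1 of the 6 genes rose and 1 fell, where 9.78% of all probe sets were higher and 12.2% lower (21.9% in either direction; limma, adjusted p below 0.05). On slou_RFP the count was again 1 higher and 1 lower, beside 11.1% and 12.9% (24.1% in all). The median difference of the 6 was -0.37 on ap_GFP and -0.38 on slou_RFP, while the medians of all probe sets were 0.11 and 0.13. With 7 arrays these medians were -0.34 and -0.32, beside 0.10 and 0.11. There 1 gene was higher and 3 were lower in each comparison, beside 20% higher and 16.5% lower on ap_GFP (36.4% in all) and 20.7% and 16.9% on slou_RFP (37.6% in all). Values of the groups did not overlap for tx, shot and slow on ap_GFP, as for 48.7% of all probe sets, and for tx and shot on slou_RFP, as for 47.2%. Under the submitters' own threshold (1.7-fold with an unadjusted p below 0.05) tx and slow were counted in both comparisons, as were 14.2% of all probe sets on ap_GFP and 13.7% on slou_RFP. Both comparisons use the same 3 twi_actin_GFP arrays and are therefore not independent.

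**Figure D1:**
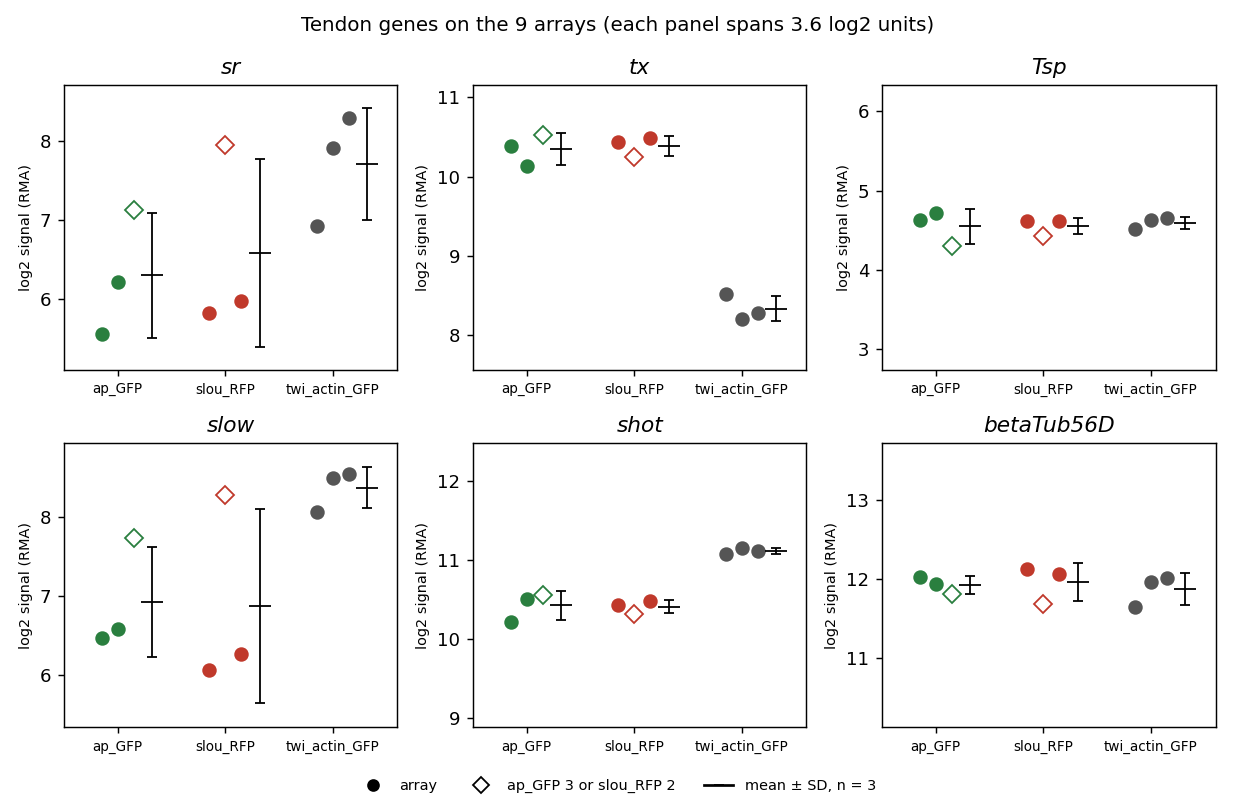
Log2 signal (RMA) of the 6 tendon genes on each of the 9 arrays, by group, with the mean ± SD of 3 arrays at the right of each group. Open diamonds are ap_GFP replicate 3 and slou_RFP replicate 2, which sit 1.20 or more above the mean of the other arrays of their group for sr and slow. For tx all 6 muscle reporter arrays lie between 10.13 and 10.52, above twi_actin_GFP.

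The upstream member is sr, an EGR-type zinc finger factor that directs tendon fate. The ap_GFP arrays read 5.56, 6.21 and 7.13 (replicates 1 to 3, in this order throughout), the slou_RFP arrays 5.83, 7.95 and 5.97, and the twi_actin_GFP arrays 6.92, 7.91 and 8.29. The highest array of each muscle reporter group was the one that stood apart, and both lay within the twi_actin_GFP range, so that the groups overlapped. The other 4 muscle reporter arrays all lay below twi_actin_GFP. With 7 arrays a group lay wholly below twi_actin_GFP for 21.2% of all probe sets on ap_GFP and for 22.8% on slou_RFP.

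The group means of sr were 6.30 ± 0.79 (SD, n = 3) on ap_GFP, 6.58 ± 1.18 on slou_RFP and 7.71 ± 0.71 on twi_actin_GFP. The difference from twi_actin_GFP was -1.41 ± 0.63 (standard error) for ap_GFP (limma, adjusted p = 0.151) and -1.12 ± 0.63 for slou_RFP (adjusted p = 0.211). Neither passed the test. Without the pair of arrays the fall of sr passed, at 3.54-fold for ap_GFP (-1.82 ± 0.36, limma, adjusted p = 0.00496). For slou_RFP it was 3.50-fold (-1.81 ± 0.36, adjusted p = 0.00514). Leaving out slou_RFP replicate 2 alone brought both under the threshold (limma, adjusted p = 0.0406 and 0.0257). That array is in neither group of the ap_GFP comparison, where the difference stayed at -1.41 and the groups still overlapped. There only the estimate of spread shared by all groups and the adjustment over probe sets changed. With only ap_GFP and twi_actin_GFP in the fit sr did not pass. The spread of sr within groups was larger than that of 98.9% of all probe sets (pooled SD 0.92, against a median of 0.17), and larger than that of 99.6% on the 7 arrays (0.55 against 0.12).

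The second factor, tx (delilah), encodes a bHLH protein that is expressed in tendon cells and is known as a marker of them. The ap_GFP arrays read 10.39, 10.13 and 10.52, the slou_RFP arrays 10.43, 10.25 and 10.49, and the twi_actin_GFP arrays 8.51, 8.20 and 8.28. All 6 muscle reporter arrays lay above all 3 twi_actin_GFP arrays, and the arrays that stood apart lay within 0.25 of the mean of the others of their group. A group lay wholly above twi_actin_GFP for 31% of all probe sets on ap_GFP and for 29.4% on slou_RFP.

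Thus tx was 4.05-fold higher on ap_GFP (2.02 ± 0.13, 95% interval 1.72 to 2.32, limma, adjusted p = 1.8e-05) and 4.17-fold higher on slou_RFP (2.06 ± 0.13, 1.76 to 2.36, adjusted p = 1.5e-05). By size of increase it ranked 96 of 16377 probe sets on ap_GFP and 73 on slou_RFP. With 7 arrays the increases were 1.93 ± 0.12 and 2.13 ± 0.12. The direction of tx was thus opposite to that of sr wherever sr passed the test.

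Other bHLH genes went in both directions. Of 18 measured bHLH factors 2 were higher and 2 lower on ap_GFP, and 3 were higher and 1 lower on slou_RFP, with median differences of -0.01 and 0.23. With 7 arrays 4 were higher and 3 lower on ap_GFP, and 6 higher and 3 lower on slou_RFP. These and the list counts below stand beside 21.9% of all probe sets called on ap_GFP and 24.1% on slou_RFP. With 7 arrays the shares were 36.4% and 37.6%. When only probe sets brighter than the median were fitted (9 arrays), 39.7% and 39.9% were called. No list was tested as a set. The mesodermal factor gene twi rose by 2.32 ± 0.21 and 2.33 ± 0.21, and net, which represses vein formation in the Drosophila wing, rose by 2.23 ± 0.33 and 3.01 ± 0.33. Fer1 fell on both (-0.51 and -0.48). The proneural-type gene cato rose on slou_RFP (0.45 ± 0.11) and did not pass on ap_GFP (0.31 ± 0.11, limma, adjusted p = 0.0806), and the difference between these was not called. The group means of cato (4.18 on ap_GFP, 4.31 on slou_RFP and 3.86 on twi_actin_GFP) lay under every array median. It is thus not shown to be above background.

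The secreted members are Tsp, which encodes thrombospondin, an integrin ligand laid down by tendon cells, and slow (slowdown), whose product binds thrombospondin and tempers its action at the junction. For Tsp the ap_GFP arrays read 4.63, 4.72 and 4.30, the slou_RFP arrays 4.61, 4.43 and 4.62, and the twi_actin_GFP arrays 4.51, 4.63 and 4.65. These values lie near the array medians, and all groups overlapped. RMA gives no detection call, so that Tsp is not shown to be above background in any group.

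The difference of Tsp was -0.05 on ap_GFP (95% interval -0.33 to 0.23, limma, adjusted p = 0.797) and -0.05 on slou_RFP (-0.33 to 0.23, adjusted p = 0.786). At so low a signal RMA can compress differences, which was not measured for this probe set. The interval is one of signal, not of transcript number.

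For slow the ap_GFP arrays read 6.47, 6.59 and 7.73, the slou_RFP arrays 6.07, 8.28 and 6.27, and the twi_actin_GFP arrays 8.07, 8.49 and 8.55. As for sr, the highest array of each muscle reporter group was the one that stood apart. All ap_GFP arrays lay below twi_actin_GFP, as held for 17.7% of probe sets, whereas slou_RFP replicate 2 lay within the twi_actin_GFP range.

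The difference of slow was -1.44 ± 0.57 on ap_GFP (limma, adjusted p = 0.109) and -1.50 ± 0.57 on slou_RFP (adjusted p = 0.0881), and neither passed the test. With only ap_GFP and twi_actin_GFP in the fit the first did (adjusted p = 0.0193). Without the pair slow fell in both comparisons: 3.58-fold for ap_GFP (-1.84 ± 0.15, limma, adjusted p = 3.47e-05) and 4.60-fold for slou_RFP (-2.20 ± 0.15, adjusted p = 1.26e-05). Its pooled SD within groups dropped from 0.83 to 0.20 when the pair was left out, beside medians of 0.17 and 0.12 over all probe sets. The spread of slow was larger than that of 98.5% of probe sets on 9 arrays and of 87.4% on 7. Without slou_RFP replicate 2 alone the limma adjusted p was 0.00906 and 0.00203. On ap_GFP the difference stayed at -1.44, since that array is in neither of the groups compared.

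The pair of arrays differed from the rest of their groups on sr and slow and far less on the other members. Relative to the mean of the other 2 arrays of its group, ap_GFP replicate 3 was higher by 1.24 for sr and by 1.20 for slow, and slou_RFP replicate 2 was higher by 2.05 and 2.11. For tx, Tsp, shot and betaTub56D the same deviations ran from -0.37 to 0.25 on ap_GFP replicate 3 and from -0.41 to -0.13 on slou_RFP replicate 2. These arrays were picked out by their values over all probe sets, and the deviations were not tested.

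Markers of other cell types on this pair did not follow 1 pattern. The median deviation of the 10 measured differentiated muscle genes was 0.32 and 0.54 on the pair, while the remaining 4 muscle reporter arrays had -0.22 to -0.09. That of the 6 fusion-competent myoblast genes was 0.71 and 0.50, against 1.07 to 1.31. For the 16 epidermal markers it was -0.56 and -0.11, against -0.37 to -0.18, while their summed signal was lower on both arrays of the pair (2705 and 3407) than on the rest (4112 to 4570). The median and the sum thus differ in direction for slou_RFP replicate 2. For the 5 tracheal markers the median deviation was -0.62 and -0.10, against -0.91 to -0.44, and the summed signal 872 and 1202, against 488 to 661. By both measures slou_RFP replicate 2 was above the rest, and ap_GFP replicate 3 was so by the sum alone. Their part in the levels of sr and slow was not tested.

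**Figure D2:**
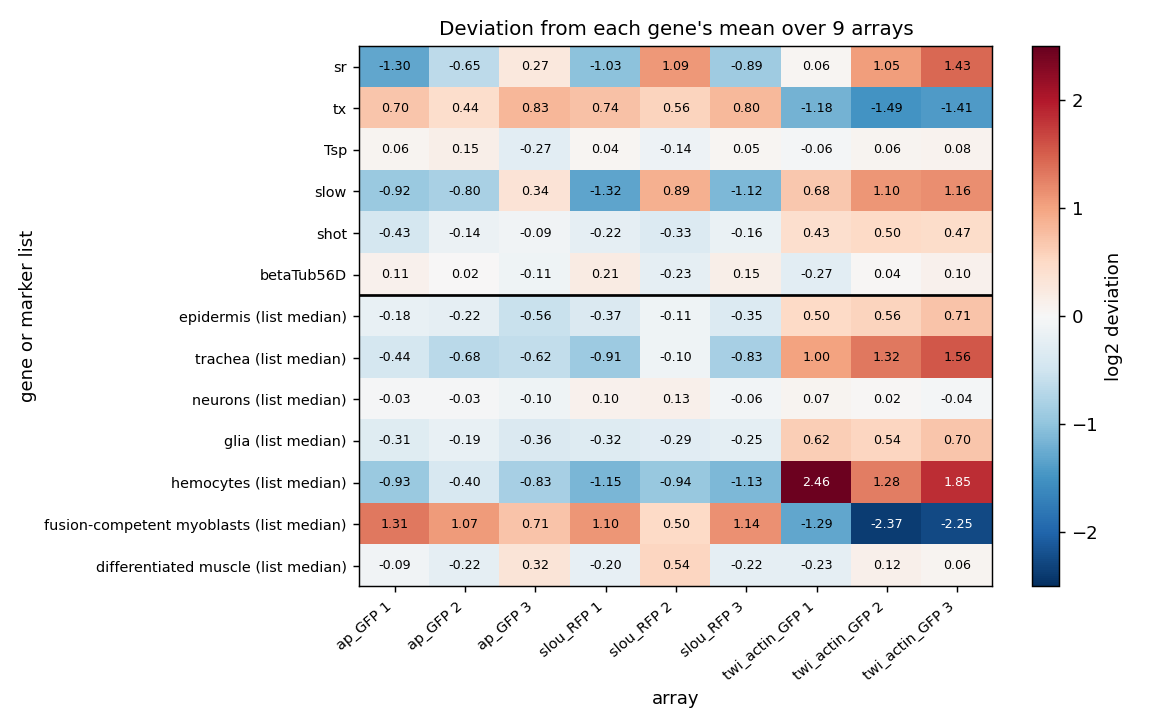
Log2 deviation of each tendon gene from its own mean over the 9 arrays (upper 6 rows) and median deviation of the genes of each marker list (lower 7 rows), 1 column per array. The rows of sr and slow are above 0 on ap_GFP replicate 3, on slou_RFP replicate 2 and on twi_actin_GFP, while the row of tx is above 0 on all 6 muscle reporter arrays.

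The scaffold members are shot (short stop), a spectraplakin that links actin to microtubules and keeps tendon cells intact under load, and betaTub56D, a beta-tubulin that is widely expressed and enriched in attachment cells. For shot the ap_GFP arrays read 10.22, 10.51 and 10.56, the slou_RFP arrays 10.43, 10.32 and 10.49, and the twi_actin_GFP arrays 11.08, 11.15 and 11.12. All 6 muscle reporter arrays lay below all 3 twi_actin_GFP arrays, which were close together (SD 0.04). A group lay wholly below twi_actin_GFP for 17.7% of probe sets on ap_GFP and for 17.9% on slou_RFP.

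The fall of shot was 1.61-fold on ap_GFP (-0.69 ± 0.11, 95% interval -0.93 to -0.45, limma, adjusted p = 0.00175) and 1.63-fold on slou_RFP (-0.71 ± 0.11, -0.95 to -0.46, adjusted p = 0.00162). Both folds lie under the 1.7-fold that the submitters required. With 7 arrays the differences were -0.76 ± 0.10 and -0.66 ± 0.10. With 1 probe set for the gene, isoforms of shot are not separated.

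For betaTub56D the ap_GFP arrays read 12.03, 11.94 and 11.81, the slou_RFP arrays 12.13, 11.69 and 12.07, and the twi_actin_GFP arrays 11.65, 11.96 and 12.02, with all groups overlapping. The difference was 0.05 on ap_GFP (95% interval -0.29 to 0.38, limma, adjusted p = 0.845) and 0.09 on slou_RFP (-0.25 to 0.42, adjusted p = 0.676). With 7 arrays, where the lowest slou_RFP value is left out, slou_RFP lay wholly above twi_actin_GFP, as for 42.4% of probe sets, and the difference still did not pass (0.22 ± 0.12, adjusted p = 0.176).

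None of the 6 genes was called between the muscle reporters. Subtracting slou_RFP from ap_GFP gave -0.04 for tx (95% interval -0.34 to 0.26), 0.01 for shot (-0.23 to 0.26), 0.00 for Tsp (-0.28 to 0.28) and -0.04 for betaTub56D (-0.38 to 0.29), with limma adjusted p-values from 0.994 to 0.999. The intervals were wide for sr (-1.72 to 1.15) and slow (-1.24 to 1.36), in which differences above 2-fold either way remain possible. In this comparison 0 of 16377 probe sets were called by limma (0%), and 430 had an unadjusted p below 0.05. With 7 arrays both ap_GFP arrays lay above both slou_RFP arrays for slow (0.36 ± 0.16, adjusted p = 1) and for Tsp, and below them for tx and betaTub56D, and groups of this size did not overlap for 33% of probe sets. From high to low the mean level of tx ran slou_RFP, ap_GFP, twi_actin_GFP, that of sr twi_actin_GFP, slou_RFP, ap_GFP, and those of slow and shot twi_actin_GFP, ap_GFP, slou_RFP, with no difference beyond the spread between the muscle reporters in any.

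**Figure D3:**
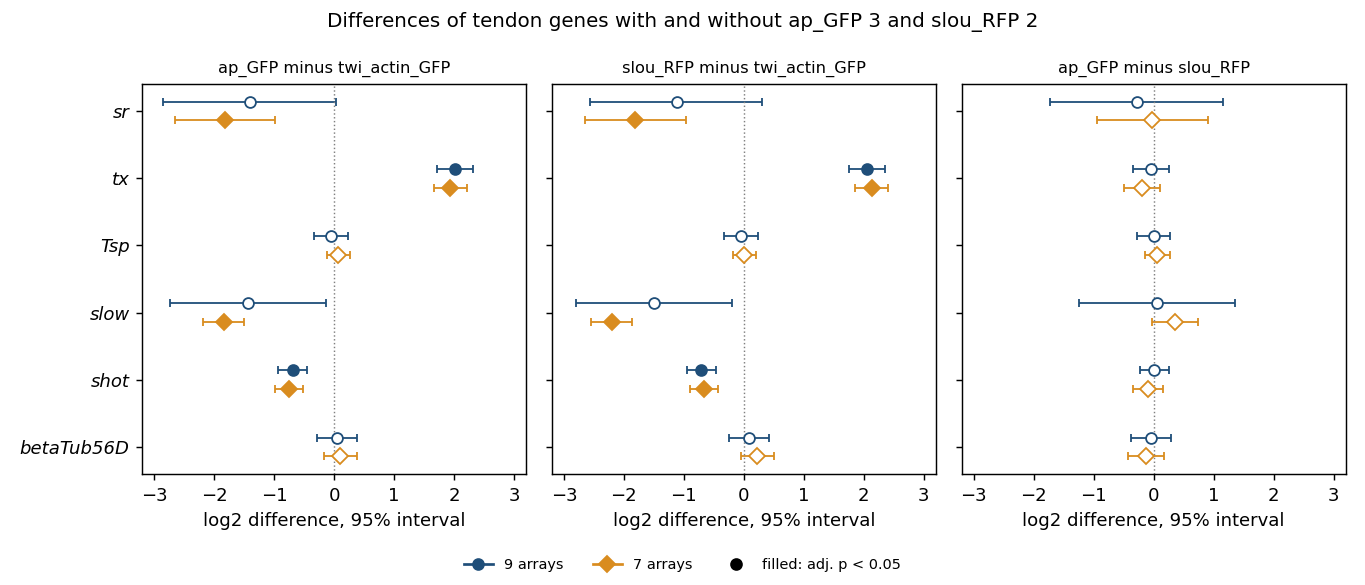
Log2 difference of each tendon gene in the 3 comparisons with its 95% interval from the limma fit, for all 9 arrays (circles) and for the 7 arrays without ap_GFP replicate 3 and slou_RFP replicate 2 (diamonds). Filled symbols passed an adjusted p of 0.05: tx and shot on 9 arrays, and sr and slow as well on 7, with sr near -1.8 in both comparisons against twi_actin_GFP.

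The EGF receptor pathway, which carries the signal from muscle to tendon cell, was read from 13 measured genes of a list of 20, with vn, which encodes Vein, rho, pnt and the antagonist gene aos not analysed here. On both muscle reporters 5 of the 13 were higher and 3 lower, with medians of 0.50 and 0.40. With 7 arrays 8 were higher and 3 lower in both comparisons. The receptor gene Egfr fell, with differences of -1.92 ± 0.12 for ap_GFP (limma, adjusted p = 1.5e-05) and -1.98 ± 0.12 for slou_RFP (1.3e-05). The other genes that fell were spi, which encodes a ligand (-0.59 and -0.52), and ed, whose adhesion protein restrains this receptor (-0.69 and -0.83). The adaptor gene drk rose by 0.63 ± 0.10 and 0.66 ± 0.10, the exchange factor gene Sos by 0.50 ± 0.12 and 0.66 ± 0.12, and aop, a transcriptional repressor of the pathway, by 1.18 ± 0.16 and 1.14 ± 0.16. The remaining genes that rose were S, whose product carries the ligand precursor to its processing site (1.5 ± 0.28 and 1.00 ± 0.28), and Cbl, which leads the receptor to degradation (0.53 ± 0.11 and 0.40 ± 0.11). Of these spi, ed, S and Cbl were named after their values were seen.

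Integrin adhesion and matrix genes of the muscle-tendon junction went in both directions. Of 17 measured genes 2 were higher and 4 lower on ap_GFP and 1 higher and 4 lower on slou_RFP, with medians of -0.14 and -0.16, and with 7 arrays 5 were higher and 6 lower in both. Of all probe sets 21.9% on ap_GFP and 24.1% on slou_RFP were called, and 36.4% and 37.6% with 7 arrays. The 4 listed genes that fell on 9 arrays were the same in both comparisons. They were the perlecan gene trol (-2.20 ± 0.21 and -2.40 ± 0.21), the laminin alpha gene wb (-0.83 ± 0.12 and -0.77 ± 0.12), mew, the integrin alpha subunit gene of the tendon side (-1.14 ± 0.26 and -1.37 ± 0.26), and the alpha subunit gene scb (-0.80 ± 0.14 and -0.62 ± 0.14). The alpha subunit gene of the muscle side, if, named after its values were seen, differed by -0.08 ± 0.11 and -0.15 ± 0.11 and did not pass (limma, adjusted p = 0.641 and 0.337).

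Genes of muscle guidance toward tendon cells split in both directions, with 2 higher and 5 lower of 12 on ap_GFP and 3 higher and 5 lower on slou_RFP (medians -0.10 and -0.12). With 7 arrays 3 were higher and 6 lower, then 4 and 5. The adhesion gene Nrt fell (-1.78 and -1.63), as did the netrin gene NetB (-1.32 and -1.90) and Grip, whose product acts in muscles during targeting (-0.80 and -0.64). The Slit receptor gene robo1 rose by 0.62 ± 0.08 and 0.66 ± 0.08. The ligand gene sli, which tendon cells express in Drosophila, did not pass (0.08 ± 0.10 in both, limma, adjusted p = 0.624 and 0.592). It was named after its values were seen. The group means of sli (4.00 on both muscle reporters and 3.92 on twi_actin_GFP) lay under every array median, so that sli is not shown to be above background.

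Beside shot, 15 microtubule and actin linker genes were measured, of which 7 were higher and 1 lower on ap_GFP and 5 higher and 1 lower on slou_RFP (medians 0.39 and 0.26). Without the pair of arrays 10 were higher and 2 lower in both comparisons. The beta-heavy spectrin gene kst rose by 1.40 ± 0.14 and 1.27 ± 0.14, the microtubule polymerase gene msps by 0.93 ± 0.15 and 0.88 ± 0.15, the giant nesprin gene Msp300, which acts around muscle nuclei, by 0.65 ± 0.13 and 0.82 ± 0.13, and the microtubule-associated futsch by 0.88 ± 0.15 and 0.83 ± 0.15. With 9 arrays the 1 linker gene that fell, as shot did, was CLIP-190 (-0.74 and -0.89), a microtubule plus-end gene named after its values were seen.

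Of 6 other tubulin genes 1 was higher and 2 lower on ap_GFP and 1 higher and 1 lower on slou_RFP (medians 0.22 and 0.19), and with 7 arrays 2 were higher in both, with 2 and 1 lower. The alpha-tubulin gene alphaTub85E, known from Drosophila muscle and testis, rose by 1.86 ± 0.29 and 1.75 ± 0.29. The beta-tubulin gene betaTub97EF fell (-0.80 ± 0.12 and -0.77 ± 0.12).

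**Figure D4:**
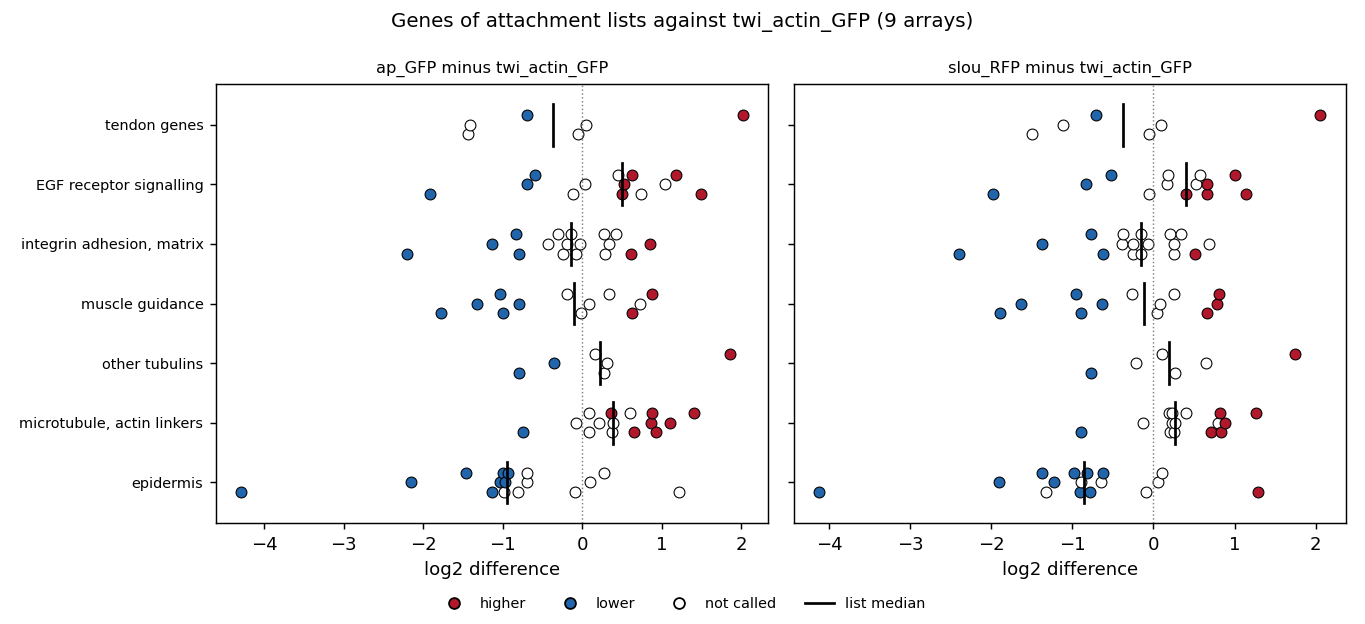
Log2 difference from twi_actin_GFP (9 arrays) of each measured gene of the tendon, EGF receptor, integrin and matrix, guidance, tubulin, linker and epidermis lists, for ap_GFP on the left and slou_RFP on the right. Filled points passed an adjusted p of 0.05 in limma, and black bars are list medians, which lie near -0.4 for the tendon genes and lowest for epidermis (-0.95 and -0.86).

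Because tendon cells belong to the ectoderm, epidermal and tracheal markers were read on the same arrays. Of 16 epidermal markers 8 were lower and 0 higher on ap_GFP, and 9 were lower and 1 higher on slou_RFP (10 lower and 1 higher, then 12 lower and 1 higher, with 7 arrays). Their summed linear signal was 2705 to 4570 on ap_GFP, 3407 to 4229 on slou_RFP and 4829 to 5509 on twi_actin_GFP, and 1 of the 16, ple, lay under the lower quartile on every array. The cuticle-related genes dy and tyn, which shape the apical matrix, fell on ap_GFP (-4.29 and -1.46) and on slou_RFP (-4.13 and -1.37). All 5 measured tracheal genes fell in both comparisons, and their summed signal was 639 to 872, 488 to 1202 and 5023 to 6181 in the 3 groups. By group, the summed signals of these markers were lower on both muscle reporters, as were shot and, with 7 arrays, sr and slow, while tx was higher. Single arrays did not all follow. Within ap_GFP, replicate 3 had the highest shot (10.56), with the lowest epidermal sum (2705) and the highest tracheal sum (872). The part of these markers in the levels of the tendon genes was not tested.

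Markers of fusion-competent myoblasts, differentiated muscle, neurons, glia and hemocytes were also read. All 6 measured fusion-competent myoblast genes rose in both comparisons, on 9 and on 7 arrays, with a summed signal of 17711 to 23197 on ap_GFP, 14012 to 22097 on slou_RFP and 1996 to 4119 on twi_actin_GFP. Both muscle reporter groups were thus higher for these genes, as for tx. A group lay wholly above twi_actin_GFP for 31% of all probe sets on ap_GFP and for 29.4% on slou_RFP. A link between these genes and tx was not tested. Of 10 differentiated muscle genes 3 were higher and 0 lower in both comparisons, and 4 higher and 4 lower with 7 arrays, with a summed signal of 21739 to 28268, 22273 to 30622 and 17257 to 20293. Neurons, in which shot is also expressed, gave 3 higher and 3 lower of 10 markers on ap_GFP and 3 higher and 2 lower on slou_RFP (3 and 4, then 3 and 3, with 7 arrays), and their summed signal was 3554 to 4702, 3595 to 4618 and 2902 to 3185. The brightest genes weigh most in such a sum. By median deviation the neuronal markers did not separate the groups (-0.10 to -0.03, -0.06 to 0.13 and -0.04 to 0.07). For the 8 glial markers the summed signal was 2353 to 2453, 2241 to 2573 and 3748 to 4255, with 7 and 6 lower and 0 higher (7 and 8 lower with 7 arrays). Of 10 hemocyte markers 8 were lower and 1 higher in both comparisons, on 9 and on 7 arrays, and their summed signal was 2531 to 4005, 2106 to 3041 and 25518 to 40859. The part of these cells in the levels of the tendon genes was not tested.

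The genes whose levels ran most like those of the called members were looked up among 6555 brighter genes, by Pearson's r over the 9 arrays, as a description of arrays that fall into separate groups. For tx they were Chs2 (r = 0.997), a chitin synthase gene, CG44838 (r = 0.996) and the neuropeptide gene CCAP (r = 0.994), whose differences from twi_actin_GFP were 1.86 to 2.47 on ap_GFP and 1.88 to 2.54 on slou_RFP. For shot they were CG7220 (r = 0.996), Sdhaf3 (r = 0.995), an assembly factor gene of succinate dehydrogenase, and SREBP (r = 0.994), a regulator of lipid synthesis, whose differences were -1.16 to -0.50 and -1.08 to -0.52.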

How the data were processed

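The table deposited by the authors holds a log2 value for each probe set on 9 Affymetrix Drosophila 2.0 arrays, made with RMA in Partek per the submitters' processing notes, with versions and settings not given in the sources used here. Its range (2.28 to 14.64) is that of a log2 scale, and no normalization or filter was added. Depth does not apply to arrays, and their number, 3 per group, limits the precision.

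Probe sets were named through the platform annotation, in which 11899 carried 1 symbol, 353 carried several and 4125 were not listed. The brightest probe set stood for each of 10563 genes. Group means were fitted on the 9 arrays together with limma 3.58.1 (R 4.3.3, lmFit and eBayes, no covariates). The Benjamini-Hochberg adjustment ran over 16377 probe sets, and a call needed an adjusted p under 0.05. The procedure was tested on simulated arrays with independent noise, which held no pair of arrays that deviate together. The members, the 13 other gene lists and the 7-array setting were chosen with earlier results of these data known. From each list up to 4 genes with the smallest adjusted p were eligible to be named, and for each called member the 3 genes most like it. Others are marked in the text. Alternatives were other fits, scalings, filters and thresholds, and omission of each array. No scan date or other batch was given.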

Additional observations from a re-analysis of the deposited data

How the results depend on the processing

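In the comparisons against twi_actin_GFP, tx kept its direction and its call in all 17 other settings (1.93 to 2.13 on ap_GFP, 1.99 to 2.20 on slou_RFP). Tsp and betaTub56D were called in none, and no member was called between the muscle reporters in any. For shot the call ended under the submitters' threshold of 1.7-fold, which -0.69 on ap_GFP and -0.71 on slou_RFP do not reach, and held in the other 16. Under that threshold slow was called at -1.44 and -1.50. With array weights sr (-1.77 and -1.99) and slow (-1.71 and -2.30) were called, making 4 genes in both comparisons, and with only the groups compared slow was called on ap_GFP (-1.44). Without ap_GFP replicate 3 and slou_RFP replicate 2 together 4 genes were called in both, with sr at -1.82 and -1.81 and slow at -1.84 and -2.20. The causes were not tested.

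Without single arrays the differences on ap_GFP ran from -1.82 to -1.04 for sr, 1.93 to 2.13 for tx, -0.13 to 0.07 for Tsp, -1.84 to -1.21 for slow, -0.76 to -0.59 for shot and -0.07 to 0.12 for betaTub56D. On slou_RFP they ran from -1.81 to -0.75, 1.99 to 2.15, -0.09 to 0.01, -2.20 to -1.10, -0.74 to -0.66 and -0.03 to 0.22. The number of genes called was 2 to 4 in both, and 4 only without slou_RFP replicate 2. Over all probe sets 3593 were called on ap_GFP and 3946 on slou_RFP. Of the settings run, those that moved these counts by over 1.5 times were array weights (6028 and 9228), the omission of both arrays (5968 and 6155), the submitters' threshold (2318 and 2247), on ap_GFP the omission of slou_RFP replicate 2 (5462), and on slou_RFP the omission of twi_actin_GFP replicate 2 (2593) or 3 (2453).

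Replicate numbers count sorts within a transgene, and same-numbered arrays did not deviate together in every pair (correlations from -0.62 to 0.49, of which 2 of 9 were over 0.1), so that the numbers were not taken to pair the samples. With the replicate number as a block tx differed by 2.02 and 2.06 and shot by -0.69 and -0.71, 2 genes were called in both comparisons, and the block changed no other call of a member. The mean over a gene's probe sets gave no other value, since each member has 1. The low signal of Tsp limits what its interval can show.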
